A study of Mus musculus with 4 samples.

Results

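The genes described here are 40 cell cycle genes, 16 that act in S phase and 24 that act in G2 and mitosis (G2/M), out of 31253 genes with a row in the count tables of mouse lung cells. They were chosen by name: a gene is a member when its symbol in the feature tables equals Mcm2 to Mcm7, Pcna, Rrm1, Rrm2, Tyms, Gins2, Ung, Cdc6, Cdt1, Slbp or Tk1 (S phase), or Mki67, Top2a, Birc5, Cdk1, Ccna2, Ccnb1, Ccnb2, Cenpf, Cenpe, Nusap1, Tpx2, Ube2c, Aurka, Aurkb, Bub1, Bub1b, Plk1, Kif11, Kif23, Cdc20, Hmmr, Prc1, Smc2 or Smc4 (G2/M). All 40 had exactly such a row. Lungs of C57BL/6J mice were dissociated and single cells were sequenced on the 10x Genomics platform, with 2 libraries of WT mice and 2 of Vegfr2Y949F mice, called mutant below. Every library pooled the lungs of 2 mice that were 6 to 8 weeks old, and all 4 groups of mice, WT included, had been kept in hypoxia for 6 weeks, so no library shows these genes without hypoxia. Each genotype has a library of set A and one of set B, and the labels do not say what a set is. Vegfr2 is the receptor kinase through which the growth factor VEGF acts on endothelium, and the label of the mutant stands for an exchange of 1 tyrosine in it for phenylalanine. Gene counts cannot show an amino acid change, so no value here checks the genotype labels. Nothing in the labels limits the change to a cell type.

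A dividing cell copies its DNA in S phase and separates the copies in mitosis. Before S phase, Cdc6 and Cdt1 load the Mcm2-7 helicase on DNA; Gins2 belongs to the complex that activates it, Pcna is the sliding clamp of the DNA polymerases, Rrm1, Rrm2, Tyms and Tk1 make nucleotides, Slbp binds histone mRNA and Ung removes uracil from DNA. The G2/M genes include the cyclins Ccna2, Ccnb1 and Ccnb2 with their kinase Cdk1, the mitotic kinases, spindle motors and kinetochore proteins, the ubiquitin ligase factors Cdc20 and Ube2c that end mitosis, and the condensin subunits Smc2 and Smc4. In the adult lung most cells rest outside the cycle, and transcription of both lists is known to be held down there by repressor complexes that act through E2F sites and through the CHR, the cell cycle genes homology region.

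The promoters of the 2 lists carried different short motifs. Promoter windows from 250 bases before to 50 bases after the start were found in RefSeq (GRCm38.p6) for 34 of the 40 members, 14 of the S list and 20 of the G2/M list; Mcm4, Gins2, Ccna2, Tpx2, Aurkb and Smc4 had none in the table. The CHR letters TTTGAA, searched on both strands, were in 15 of the 20 G2/M promoters, in 1 of the 14 S promoters (7.14%, Mcm2) and in a promoter of 20.2% of all 27025 genes. A gene with several windows counts as holding the letters when any window does. CCAAT, searched on both strands, was in 18 of the 20 G2/M promoters (90.0%), 9 of the 14 S promoters (64.3%) and 41.1% of all genes. CHR and CCAAT letters stood together in 15 of the 20 G2/M promoters and in 7.97% of all genes. One of the E2F letters TTTCCCGC, TTTGGCGC and TTCCCGCC, which overlap each other, was in 0 of the 20 G2/M promoters, 7 of the 14 S promoters and 3.69% of all genes. A match to letters is a description and not a shown binding site.

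The promoters of 6 members are shown because they carry the contrast, the 3 most counted with E2F letters and the 3 most counted with CHR and CCAAT letters among members with a single window in the table, which leaves out Mcm7 and Prc1. Rrm1, a subunit of ribonucleotide reductase, and the helicase subunits Mcm3 and Mcm6 are S members, while Smc2, a condensin subunit, Kif23, a motor of cytokinesis, and Top2a, a topoisomerase, are G2/M members. Rrm1 lies at chr7:102441445-102441744 (plus strand) and Smc2 at chr4:52438971-52439270 (plus strand). Mcm3 lies at chr1:20820263-20820562 (minus strand) and Mcm6 at chr1:128359656-128359955 (minus strand). Top2a lies at chr11:99024140-99024439 (minus strand) and Kif23 at chr9:61946750-61947049 (minus strand). Each run reads from 5′ to 3′ on the gene's strand, and capitals mark the E2F letters in the S members and the CHR and CCAAT letters in the G2/M members, on either strand.
Rrm1: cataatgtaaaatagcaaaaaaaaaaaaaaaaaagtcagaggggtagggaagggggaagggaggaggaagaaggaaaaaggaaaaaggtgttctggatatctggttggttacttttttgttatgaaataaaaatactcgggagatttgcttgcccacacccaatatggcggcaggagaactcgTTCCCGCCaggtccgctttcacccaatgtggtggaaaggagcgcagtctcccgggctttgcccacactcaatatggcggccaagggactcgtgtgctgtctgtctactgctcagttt
Mcm3: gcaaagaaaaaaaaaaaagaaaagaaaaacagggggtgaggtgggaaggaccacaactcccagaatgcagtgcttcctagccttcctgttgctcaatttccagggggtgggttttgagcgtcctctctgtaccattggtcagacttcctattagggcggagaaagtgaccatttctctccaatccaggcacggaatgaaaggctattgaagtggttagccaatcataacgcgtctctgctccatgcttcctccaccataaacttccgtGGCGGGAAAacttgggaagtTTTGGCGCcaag
Mcm6: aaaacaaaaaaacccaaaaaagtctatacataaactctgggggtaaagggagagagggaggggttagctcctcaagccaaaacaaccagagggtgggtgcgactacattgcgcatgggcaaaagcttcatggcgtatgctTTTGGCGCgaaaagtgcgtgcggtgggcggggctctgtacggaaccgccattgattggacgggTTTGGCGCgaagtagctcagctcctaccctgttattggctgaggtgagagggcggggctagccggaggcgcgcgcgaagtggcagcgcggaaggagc
Smc2: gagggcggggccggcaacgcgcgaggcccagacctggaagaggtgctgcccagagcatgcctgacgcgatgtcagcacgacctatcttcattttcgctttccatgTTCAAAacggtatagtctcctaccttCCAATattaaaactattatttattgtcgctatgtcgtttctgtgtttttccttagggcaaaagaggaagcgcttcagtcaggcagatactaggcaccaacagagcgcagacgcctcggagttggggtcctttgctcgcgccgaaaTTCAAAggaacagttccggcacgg
Kif23: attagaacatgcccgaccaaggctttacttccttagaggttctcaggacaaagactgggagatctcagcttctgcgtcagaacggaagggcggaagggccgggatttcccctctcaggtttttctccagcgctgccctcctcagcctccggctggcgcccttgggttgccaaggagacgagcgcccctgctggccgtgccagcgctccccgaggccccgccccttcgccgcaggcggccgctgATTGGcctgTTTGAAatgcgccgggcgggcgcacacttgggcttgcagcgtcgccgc
Top2a: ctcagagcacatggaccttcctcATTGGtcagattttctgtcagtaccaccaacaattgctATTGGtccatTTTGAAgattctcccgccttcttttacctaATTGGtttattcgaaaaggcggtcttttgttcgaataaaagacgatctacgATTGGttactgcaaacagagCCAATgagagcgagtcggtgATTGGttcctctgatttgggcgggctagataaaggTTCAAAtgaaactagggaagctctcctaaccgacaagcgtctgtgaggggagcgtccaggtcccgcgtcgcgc

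The 4 libraries held between 11992 and 15160 barcodes and between 83606389 and 96521589 UMIs (unique molecular identifiers, each counting 1 captured molecule). After filters on genes, UMIs, mitochondrial share and doublets, 41248 cells remained, with a median of 4312 to 5548.5 UMIs per cell in the 4 libraries. Between 43 and 70 barcodes were shared by any pair of libraries, of which 23 to 42 were kept cells in both. The cells fell into 34 clusters that were named from marker genes. Clusters with 3020 cells were left unnamed, for low UMIs, mixed markers or a score close to that of another type. The largest of them, 1480 cells with low UMIs, matched general capillary cells best. Types were rebuilt here and may differ from the submitters' own. Members and other replication and mitosis genes were left out of the genes used for clustering. G1 genes and genes that restrain the cycle were not left out by list. General capillary endothelial cells were the most numerous type (16533 cells). Levels below are CPM, the UMIs of a gene per 1000000 UMIs of that library and cell type, not divided by gene length. Values of the 4 libraries are given in the order WT A, WT B, mutant A and mutant B. Nothing says that the libraries of a genotype are more than separate pools, so the tests measure the spread between pools.

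A few genes made up most of each sum. Over all kept cells the S list had 97247 UMIs, of which Pcna gave 41.1% and Slbp 26.0%. The G2/M list had 53009 UMIs, of which Smc4 gave 40.6% and Smc2 12.04%. At the other end, Tk1 had 284 UMIs and Bub1, a kinase of the spindle checkpoint, had 237. A UMI of Pcna was found in 46.4% of kept cells and one of Smc4 in 27.8%, against 1.36% for Mki67, the antigen used in histology to mark cycling cells, and 0.306% for Bub1.

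Most G2/M members had the larger part of their UMIs in 151 cells, and most S members did not. These cells, called mitosis-rich here, are the kept cells in which at least 20 of 64 other mitosis genes were detected, and no member was used to choose them. They are 0.366% of kept cells and hold 1.02% of all UMIs, 32.8% of G2/M UMIs and 4.77% of S UMIs. The least count of a detected mitosis gene was set after seeing its distribution: 15 of the cells had 20 to 24 such genes, and 51 further cells had 15 to 19. They are deeper than the rest, with a median of 15131 UMIs against 4849. Since mitosis genes chose the cells, the shares are a description with no test.

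For 16 of the 24 G2/M members more than 50% of all UMIs lay in the 151 cells, against 1 of the 16 S members and 0.335% of the 13716 genes with at least as many UMIs as the least counted member. More than 5% lay there for all 24 G2/M members and 12 of 16 S members, against 2.60% of those genes. The median share was 65.6% over the G2/M list, 7.98% over the S list and 0.987% over those genes. Among the spindle and kinetochore genes, Cenpf had 86.7% of its UMIs there, Hmmr 86.2%, Bub1 85.2% and Aurkb, the kinase of the chromosomal passenger complex, 85.2%. The kinase Cdk1 had 78.4%, its partner Ccna2 77.9%, Birc5 (survivin) 77.4%, Mki67 75.6% and Top2a 65.8%. On the CPM scale Mki67 stood at 654 in the mitosis-rich cells and 2.19 in the others, and Cenpf at 485 and 0.769. By library the G2/M median was 69.1%, 55.7%, 62.2% and 72.3% on 38, 25, 42 and 46 cells, and the S median was 5.89%, 5.07%, 6.49% and 14.4%. The S median of mutant B was the highest, and in each library the G2/M median lay far above it.

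Several members went against their list. Tk1 and Rrm2, enzymes of nucleotide supply, had 60.2% and 47.3% of their UMIs in the mitosis-rich cells, the highest shares of the S list, while Slbp had 2.30% and Pcna 2.55%. Of the G2/M list Smc4 had 7.86%, Kif23 15.2%, Smc2 16.4%, Aurka, the centrosomal kinase, 22.4% and Cdc20 27.3%. Smc4 was 557 CPM in the mitosis-rich cells and 67.5 CPM in the others, so the gene was higher there but most of its UMIs came from the many other cells. The shares were also set beside the promoter letters, as a description with no test. The 15 G2/M members with CHR and CCAAT letters ranged from 15.2% (Kif23) to 86.7% (Cenpf) with a median of 62.4%. The 5 without the CHR letters ranged from 53.9% (Cenpe) to 85.2% (Bub1) with a median of 71.8%. Kif23, Smc2, Aurka and Cdc20 all had both letters, and Smc4 had no window. The 7 S members with E2F letters ranged from 5.87% (Mcm6) to 16.9% (Mcm5) with a median of 7.85%. The 7 without one, among them Tk1, Rrm2, Slbp and Pcna, ranged from 2.30% to 60.2% with a median of 8.25%. Outside the members, 50 other replication genes had a median share of 8.49%, 9 G1 cyclins and kinases 1.15% and 18 genes that restrain the cycle 1.07%.

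**Figure D1:**
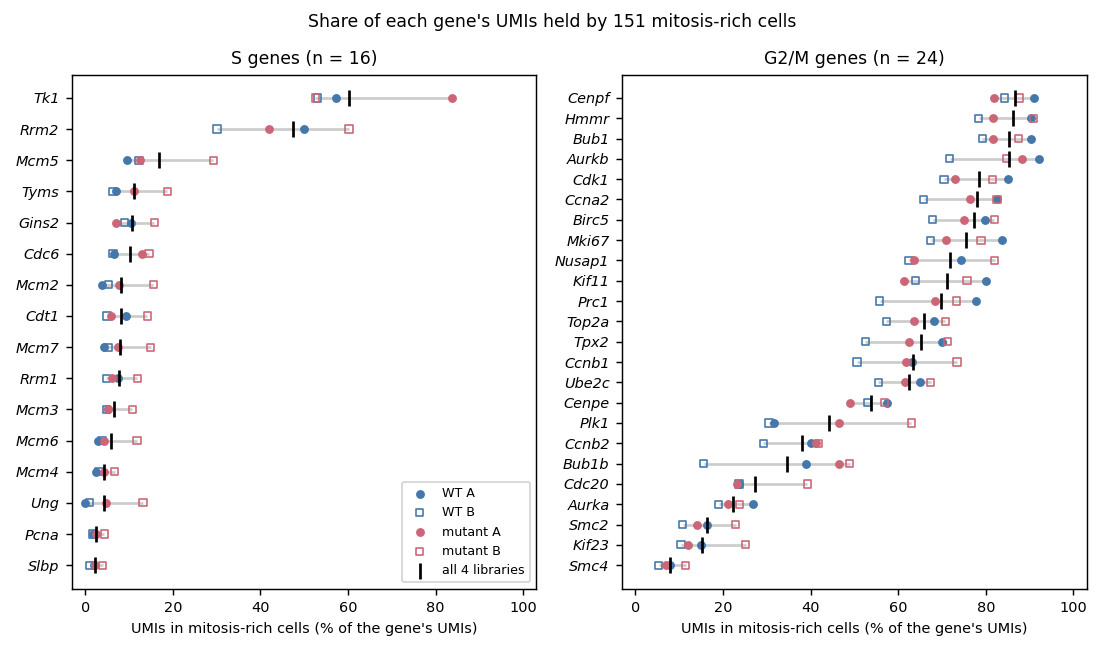
Percent of each member's UMIs found in the 151 mitosis-rich cells, with a black bar for all 4 libraries pooled and a point for each library, S and G2/M members apart. Most G2/M members lie above 50%, with Smc4 at 7.86%, Kif23 at 15.2% and Smc2 at 16.4% as the lowest, while of the S members Tk1 is at 60.2% and Rrm2 at 47.3%.

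The members were also counted at equal depth, in groups of cells that had been chosen at full depth. With each cell thinned to 2000 UMIs, 3 or more G2/M members were detected in 90.6% of 149 mitosis-rich cells and in 0.176% of the others. For 3 or more S members the shares were 46.3% and 1.43%. Thinning did not change which cells were called mitosis-rich, so these shares are a description with no test.

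Inside the mitosis-rich cells the 2 lists ran in opposite directions along a replication share that used no member. This share is the part of a cell's UMIs of the other replication and other mitosis genes that came from the replication genes. In the 51 cells with the lowest share (3.23% to 11.9%) the S list summed to 899 CPM and the G2/M list to 10470 CPM. In the next 50 cells (12.1% to 19.4%) the sums were 1374 and 5823 CPM, and in the 50 cells with the highest share (19.9% to 47.1%) they were 2023 and 2807 CPM. The median UMIs per cell were 13889, 15070 and 21114 in the same order, and mutant B gave 11, 15 and 20 of the cells. Without mutant B, 14 S members were higher and 24 G2/M members lower. The part of depth in the pattern was not tested.

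Of the S members, 15 of 16 were higher in the cells with the highest replication share than in those with the lowest, with a median ratio of 2.67. Of all 9570 genes with at least as many UMIs in these cells as the least counted member, 41.0% were higher, with a median ratio of 0.905. The helicase subunit Mcm6 was 16.7, 42.8 and 115 CPM from the lowest to the highest group, a ratio of 6.91, and the loading factor Cdc6 was 6.40, 13.6 and 31.7 CPM, a ratio of 4.95 on 5 and 41 UMIs. Mcm2 had a ratio of 4.06, Mcm7 3.94 and Pcna 2.77. Rrm1 was the exception at 138, 118 and 131 CPM, and Ung was detected with 16 UMIs in the highest group and 0 in the lowest.

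All 24 G2/M members were lower in the cells with the highest replication share, with a median ratio of 0.309, against 59.0% of all genes lower. The smallest ratios were those of 4 genes with roles from spindle assembly to the end of mitosis. Aurka was 111, 42.8 and 10.8 CPM, a ratio of 0.0971, and Cenpf 1124, 452 and 124 CPM, a ratio of 0.111. Cdc20, which activates the ligase that triggers anaphase, was 350, 89.8 and 41.7 CPM (0.119) and Ube2c, the ligase's ubiquitin-conjugating enzyme, 1015, 550 and 128 CPM (0.126). The ratios nearest 1 were those of Smc2 (0.467), Birc5 (0.456) and Bub1b (0.406). The cells were ordered by genes of the same 2 processes, so these ratios carry no test.

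**Figure D2:**
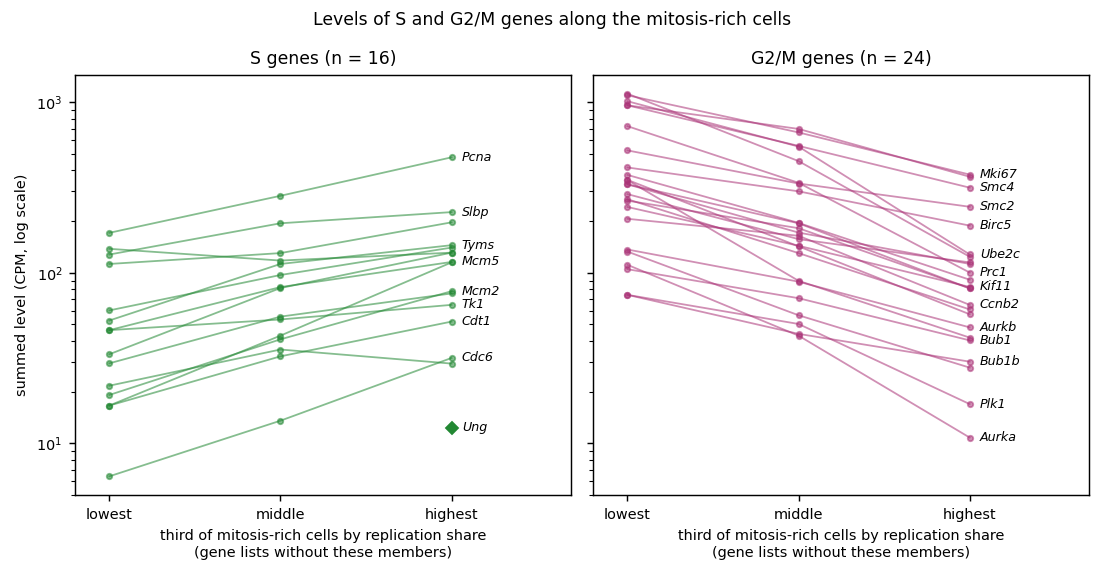
CPM of each member in the mitosis-rich cells with the lowest, middle and highest replication share (51, 50 and 50 cells, log axis), S and G2/M members apart. The S members end above their start except Rrm1 (138, 118 and 131 CPM), Ung is a lone symbol because it had 0 UMIs in the lowest group, and the 24 G2/M lines end below their start, with Cenpf going from 1124 to 124 CPM.

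Mitosis-rich cells were found in endothelium and in immune cells, and in few others. Of the 151 cells, 57 were general capillary cells (23, 3, 18 and 13 by library), 18 were aerocytes, the other capillary type of the alveolus (8, 1, 7 and 2), 22 were T cells (0, 5, 0 and 17) and 17 were alveolar macrophages (1, 6, 6 and 4). A further 14 were in unnamed clusters, and each remaining type had 6 or fewer. General capillary cells, with the highest count, were also the most numerous type. By library the share was 0.352%, 0.257%, 0.367% and 0.494% of all kept cells. It was 1.85%, 3.21%, 5.455% and 4.35% of alveolar macrophages and 0%, 0.795%, 0% and 3.74% of T cells. WT B had the fewest general capillary cells of this kind: 0.0864% of that type (95% Wilson interval 0.0294 to 0.254%), against 0.421%, 0.429% and 0.382% in WT A, mutant A and mutant B. None of 3415 neutrophils, a type that does not divide in tissue, was among them, and none of 1075 alveolar type 1 cells. Mitosis-rich cells were called at full depth, and the types differed in depth. The median was 2909 UMIs in neutrophils, 6275 in alveolar type 1 cells, 4637 in general capillary cells and 9967 in alveolar macrophages. It was 15131 UMIs in the mitosis-rich cells, of which the 2 club cells had 75819 and 83672. The part of depth in these counts and shares by type was not tested. Intervals cover counting error only.

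The G2/M sum was also taken by type. Such a sum cannot tell more cycling cells from more RNA in each. In general capillary cells it was 248.8, 155, 221 and 214 CPM, and outside the mitosis-rich cells 141, 133, 139 and 131 CPM. WT B was the low library of the first set of values, and the spread between the libraries was small in the second. In T cells it was 437, 456, 359 and 1109 CPM, with mutant B highest, and 387 ± 47.9 CPM (SD, n = 4 libraries) outside the mitosis-rich cells. Alveolar macrophages had 389, 430, 596 and 482 CPM. Neutrophils, of which none was mitosis-rich, had 72.2, 68.4, 88.1 and 73.9 CPM. They were not the lowest type: alveolar fibroblasts had 58.0, 54.2, 52.3 and 85.3 CPM, and club cells 32.8 ± 19.6 CPM (SD, n = 4 libraries).

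S members made up more of the summed UMIs in alveolar fibroblasts than in general capillary cells or alveolar macrophages. The S share of the summed S and G2/M UMIs was 61.7%, 68.3%, 65.5% and 62.9% in all kept cells, and 56.8%, 71.3%, 61.1% and 64.4% in general capillary cells. Alveolar macrophages had 48.2%, 53.9%, 44.5% and 50.5%. Alveolar fibroblasts had 78.8%, 82.5%, 85.0% and 74.5%, and their lowest library lay above the highest of general capillary cells and of alveolar macrophages. Alveolar type 1 cells, with 41.4%, 50.8%, 50.1% and 43.7%, were as low as alveolar macrophages, but their G2/M sum without Smc2 and Smc4 was only 10.3 ± 1.76 CPM (SD, n = 4 libraries). Over the mitosis-rich cells S members gave 21.1% of the sum, and over the other cells 72.2%.

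**Figure D3:**
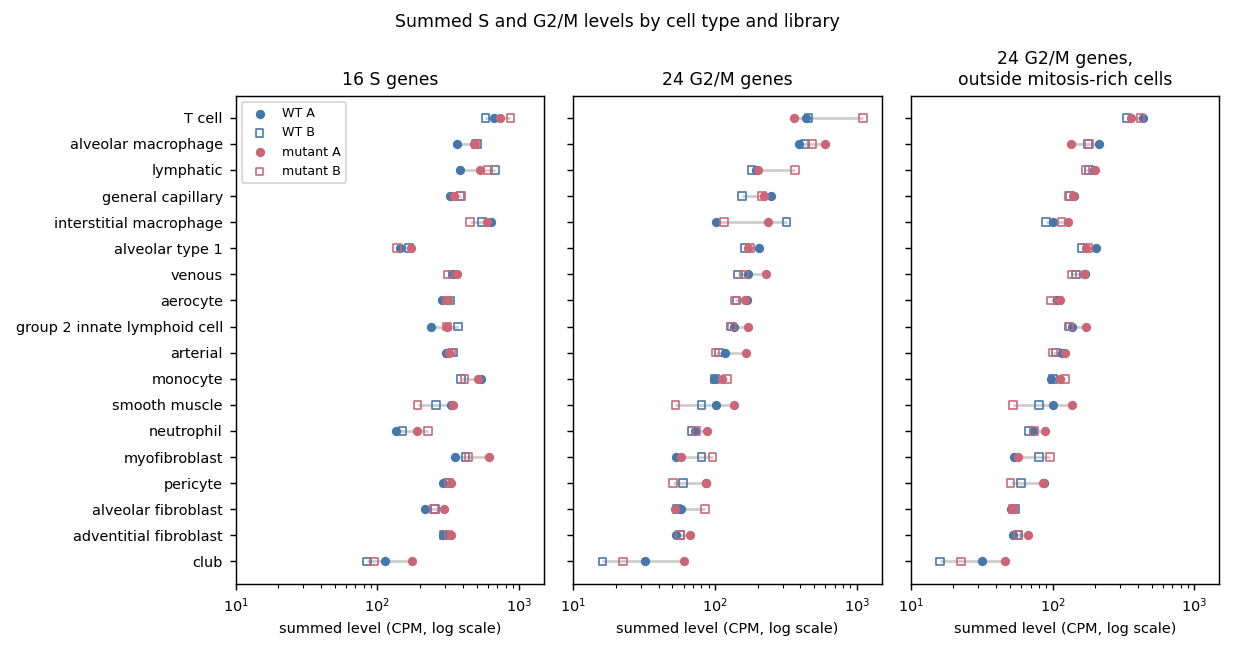
Summed CPM of the S members and of the G2/M members in each tested cell type, and of the G2/M members outside the mitosis-rich cells, on log axes with 1 point per library. Neutrophils lie at 68.4 to 88.1 CPM for G2/M, T cells reach 1109 CPM in mutant B, and alveolar type 1 cells lie at 162 to 203 CPM.

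Among the named types and pooled over the 4 libraries, alveolar macrophages had the largest share of cells with several G2/M members, before and after thinning. At least 3 different G2/M members were detected in 18.3% of alveolar macrophages, 12.8% of club cells, 11.4% of dendritic cells, 7.55% of T cells, 7.06% of ciliated cells, 6.05% of aerocytes, 3.27% of monocytes, 2.80% of general capillary cells, 3.26% of all kept cells (1343 cells, of which 853 had exactly 3) and 0.0293% of neutrophils (1 of 3415). After thinning to 2000 UMIs, which left out 4825 shallower cells, the shares were 4.66% of alveolar macrophages, 3.17% of dendritic cells, 2.35% of T cells, 0.523% of general capillary cells, 0.168% of monocytes and 0.546% of all kept cells. None was left among 133 club cells, 84 ciliated cells or 3034 neutrophils, with upper 95% Wilson limits of 2.81%, 4.37% and 0.127%. By library the thinned share of all kept cells was 0.521%, 0.391%, 0.500% and 0.801%. In alveolar macrophages it was 6.67%, 3.33%, 6.25% and 4.60%, on 3, 6, 6 and 4 cells, with a pooled 95% Wilson interval of 3.00 to 7.16%. The ranking did not hold in every library. In mutant B the thinned share of T cells was 4.78%. Before thinning, club cells of mutant A had 23.5% and its alveolar macrophages 9.09%.

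Outside the mitosis-rich cells, some G2/M members were found at high levels in types or cells with few other G2/M members. Leaving the mitosis-rich cells out had itself removed cells with many G2/M members, 22 T cells and 17 alveolar macrophages among them. The counts of other members in this and the next paragraphs are therefore a description with no test. Smc4 (chr3:69004738-69034623, plus strand, mm10), a condensin subunit, was 298, 244, 266 and 252 CPM in T cells outside the mitosis-rich cells and 179, 140, 144 and 149 CPM in alveolar type 1 cells. Both types lay above general capillary cells (78.5 ± 4.23 CPM, SD, n = 4 libraries) in each library, and the median of the types was 49.4 CPM. At least 1 Smc4 UMI was found in 58.0% of these T cells and 51.5% of these alveolar type 1 cells, against 7.64% of neutrophils, at median depths of 5569, 6275 and 2909 UMIs. Of the 554 alveolar type 1 cells with Smc4, 0 had 3 or more other G2/M members, and of the 794 T cells 19 had. The microRNA genes Mir15b and Mir16-2 lie within Smc4 on the same strand and have no row of their own.

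Bub1b (chr2:118598211-118641591, plus strand), the checkpoint protein BubR1, was 15.3, 29.0, 11.9 and 13.6 CPM in alveolar macrophages outside the mitosis-rich cells, on 102 UMIs. The next type, interstitial macrophages, had a mean of 3.32 CPM on 4 UMIs, and alveolar macrophages were higher in every library. A UMI was found in 80 of 426 such alveolar macrophages, 18.8% (95% Wilson interval 15.4 to 22.8%), against 0.469% of neutrophils and 0.176% of general capillary cells, at median depths of 9827, 2909 and 4626 UMIs. Of those 80 cells, 10 had 3 or more other G2/M members.

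Mki67 (chr7:135689784-135716361, minus strand) was 12.7, 20.7, 24.3 and 17.5 CPM in interstitial macrophages outside the mitosis-rich cells, on 37 UMIs, and 10.7 ± 1.93 CPM (SD, n = 4 libraries) in alveolar macrophages. Of the 25 interstitial macrophages with Mki67, 2 had 3 or more other G2/M members, against 17 of 34 alveolar macrophages. The median depths of these cells were 8334 and 14114 UMIs, and the part of depth in this contrast was not tested. Mki67, Bub1b and Smc4 were the 3 of 40 members for which 1 type lay above all other types in every library, a share below the 22.0% of 16886 genes for which this held.

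Other members had a wider spread among the types outside the mitosis-rich cells. Cdt1 (chr8:122568015-122573554, plus strand) was 9.74, 23.6, 23.2 and 49.6 CPM in neutrophils and 2.10 ± 0.115 CPM (SD, n = 4 libraries) in general capillary cells, and 228 of 3415 neutrophils had a UMI, of which 0 had 3 or more other G2/M members. Neutrophils were not the highest type for Cdt1. Interstitial macrophages had the highest mean of the tested types (30.8 ± 10.4 CPM), followed by T cells (27.7 ± 8.91 CPM). Cdt1 overlaps Gm20388 on the same strand, which has its own row, so counts of the pair are uncertain. Kif23 was 25.6, 22.1, 32.6 and 25.3 CPM in neutrophils and 10.3 ± 2.36 CPM in general capillary cells, without overlap. Hmmr, a spindle protein, was 4.099, 4.02, 2.17 and 2.81 CPM in neutrophils on 32 UMIs, and 0.155 ± 0.127 CPM in general capillary cells. Neutrophils had the highest mean of the tested types for Kif23 and Hmmr, with overlap with monocytes for Kif23 (24.5 ± 5.05 CPM), and none was mitosis-rich.

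Cdc20 was 13.4, 7.20, 12.1 and 8.93 CPM in arterial cells, above general capillary cells (5.58 ± 0.637 CPM, SD, n = 4 libraries) in each library. Cdc6 (chr11:98907801-98923940, plus strand) was 4.15, 6.54, 6.27 and 5.52 CPM in alveolar fibroblasts and 0.864 ± 0.135 CPM in general capillary cells. Of the 178 alveolar fibroblasts with Cdc6, 2 had 3 or more other G2/M members. Ccnb2 was 6.501, 7.22, 3.99 and 8.10 CPM in alveolar fibroblasts and 1.24 ± 0.219 CPM in general capillary cells. For Cdc6 and Ccnb2 the lowest fibroblast library lay above the highest capillary library. Alveolar fibroblasts did not have the highest mean of the tested types for either gene. Interstitial macrophages had it for Cdc6, at 13.1 ± 8.85 CPM on 21 UMIs. Myofibroblasts had it for Ccnb2, at 7.57 ± 4.62 CPM on 8 UMIs.

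**Figure D4:**
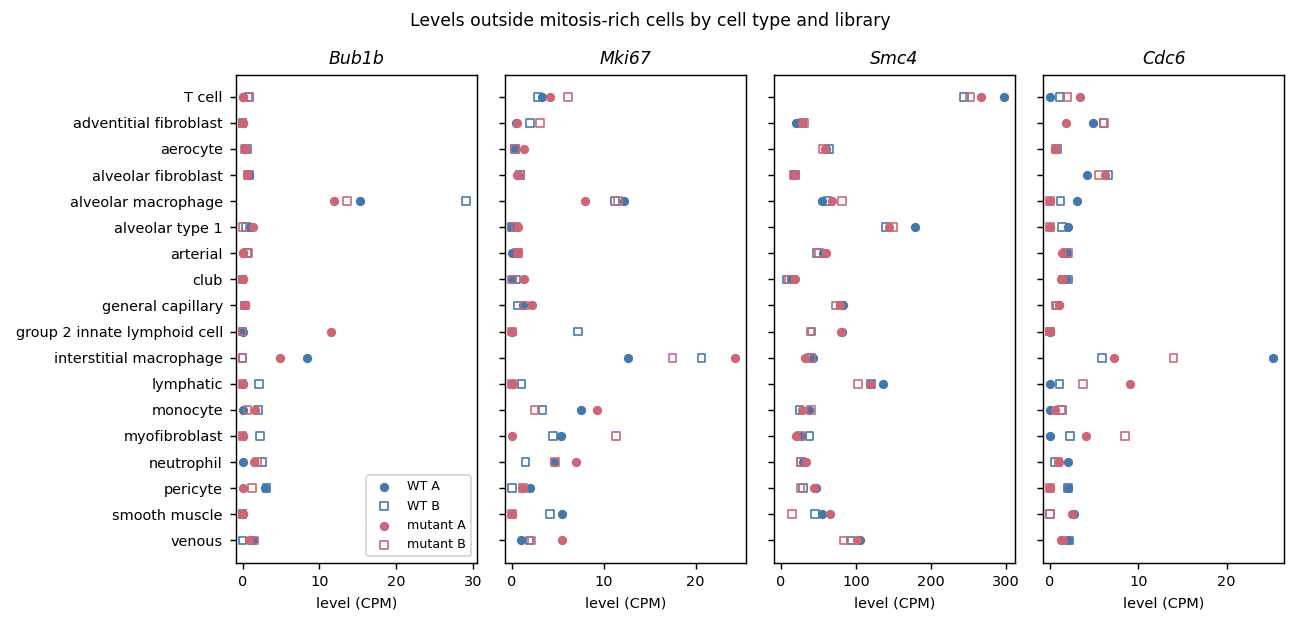
CPM by cell type outside the mitosis-rich cells for Bub1b, Mki67, Smc4 and Cdc6, 1 point per library. Smc4 stands at 244 to 298 CPM in T cells and 140 to 179 CPM in alveolar type 1 cells, and Bub1b at 11.9 to 29.0 CPM in alveolar macrophages.

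Immune and endothelial cells differed for 23 members under TMM scaling, each with a higher fitted level in immune cells, and for 15 members when counts were scaled by library totals alone. The comparison took the UMIs of 7120 immune cells and 22855 blood endothelial cells (general capillary, aerocyte, arterial and venous) per library, with library as a block, in edgeR's quasi-likelihood test with Benjamini-Hochberg adjustment over 14053 genes. It called 67.6% of all genes, 31.5% as higher in immune cells and 36.1% as lower, so differences were the rule. Of the S members 10 of 16 were higher and 0 lower (median log2 difference 0.65), and of the G2/M members 13 of 24 were higher and 0 lower (median 1.28), beside a median of -0.10 over all genes. With library totals the median of all genes was -0.51, with 3216 genes higher and 6716 lower, and the members' medians were 0.24 and 0.86. Then 4 S members were higher and 1 lower (Mcm3) and 10 G2/M members were higher, so the fitted values below are relative to TMM scaling. By CPM, 10 of the 23 called members were higher in immune cells in all 4 libraries (Mcm5, Pcna, Cdc6, Cdt1, Tk1, Mki67, Ube2c, Aurka, Bub1b and Kif23), 7 in 3 libraries and 6 in 2 (Mcm2, Mcm4, Ung, Top2a, Kif11 and Smc4). The cell types were drawn from other genes of the same cells. The makeup of the immune cells differed between libraries, with 380 to 1895 neutrophils and 62 to 629 T cells, and its part in the differences was not tested.

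Among the licensing factors Cdt1 had the largest difference: 2.15, 1.58, 2.32 and 2.05 CPM in endothelium against 14.7, 24.5, 24.3 and 25.3 CPM in immune cells. The values of the 2 compartments did not overlap, and the log2 difference was 3.86 (SE 0.19, adjusted p = 6.23e-06 in edgeR's quasi-likelihood test). Cdc6 differed by 1.70 and the helicase subunit Mcm5 by 1.48 on the log2 scale. Of the nucleotide enzymes, Tk1 differed by 2.64 (SE 0.52), at 0.791, 0.237, 0.885 and 0.745 CPM in endothelium and 2.35, 2.67, 1.14 and 7.45 CPM in immune cells. Pcna differed by 0.62 and Slbp by 0.56, and with library totals by 0.21 and 0.14, neither of which was called.

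Of the G2/M members Bub1b had the largest difference, 2.55 (SE 0.44), at 0.882, 0.553, 1.06 and 1.04 CPM in endothelium and 2.05, 7.94, 2.97 and 3.57 CPM in immune cells. The immune types did not share it alike. Outside the mitosis-rich cells a Bub1b UMI was found in 18.8% of alveolar macrophages (102 UMIs), against 0.366% of T cells (5 UMIs) and 0.469% of neutrophils (16 UMIs). Birc5 differed by 2.24 (SE 0.62) and Mki67 by 2.11 (SE 0.47). Kif23 was 14.4, 8.34, 12.6 and 9.495 CPM in endothelium and 20.5, 19.7, 27.0 and 24.5 CPM in immune cells, a log2 difference of 1.48 (SE 0.14, adjusted p = 0.000115 in edgeR's quasi-likelihood test). Smc4 was 85.9, 78.0, 78.4 and 75.4 CPM in endothelium and 61.9, 114, 67.3 and 131 CPM in immune cells, lower in immune cells in both A libraries and higher in both B libraries. Its log2 difference was 0.58 (SE 0.18), a call that was lost with library totals (0.17), without filter, without WT B, without mutant A or without mutant B. Without mutant B 15 members were called, and without WT B 16.

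Outside the mitosis-rich cells a few members of each list were lower in immune cells, and more were higher. The same test then called 28 of the 38 members that passed the filter, against 68.6% of all genes (32.3% higher and 36.3% lower). The median log2 difference was 0.59 for the S members and 1.48 for the G2/M members. Of the S members 9 were higher and 2 lower in immune cells: Mcm3 (-0.85, SE 0.16) and Tyms (-0.83, SE 0.23). Of the 22 G2/M members tested 15 were higher and 2 lower: Cdc20 (-1.15, SE 0.28) and Smc2 (-0.58, SE 0.20). Hmmr (3.91), Mki67 (3.49) and Bub1b (3.44) had the largest differences of that list. For Bub1b, alveolar macrophages held 102 UMIs there and T cells 5. The 2 members that were no longer tested were Aurkb and Bub1.

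Mesenchymal cells, 6499 fibroblasts, myofibroblasts, smooth muscle cells and pericytes, had less of most members than endothelium. edgeR's quasi-likelihood test, again with library as a block, called 33 of 40 members, against 79.0% of 14299 genes (39.9% higher and 39.0% lower in mesenchyme). Of the G2/M members 21 were lower and 1 higher, with a median log2 difference of -1.73, and of the S members 8 were lower and 3 higher, with a median of -0.37. The median of all genes was 0.00.

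Smc4 was 85.9, 78.0, 78.4 and 75.4 CPM in endothelium and 22.2, 22.9, 24.9 and 21.6 CPM in mesenchyme, a log2 difference of -1.75 (SE 0.06, adjusted p = 8.52e-09 in edgeR's quasi-likelihood test). The cyclin Ccnb1 differed by -2.83 (SE 0.46) and the helicase subunit Mcm3 by -2.37 (SE 0.12). The members higher in mesenchyme were Cdc6 (2.30, SE 0.17), Ccnb2 (1.28, SE 0.17), Rrm1 (0.54, SE 0.08) and Mcm4 (0.36, SE 0.08). Cdc6 was 1.13, 1.00, 1.08 and 0.904 CPM in endothelium and 3.99, 5.72, 4.81 and 5.26 CPM in mesenchyme, without overlap.

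The mesenchymal difference of the G2/M list shrank outside the mitosis-rich cells, its median going from -1.73 to -0.39. The cells left out had been chosen by mitosis genes, 79 in endothelium and 2 in mesenchyme, so this change carries no test. The 2 medians also cover unlike sets, of 24 and 19 members. Cdk1, Ccnb1, Aurkb, Bub1 and Hmmr, with differences of -1.93 to -2.83 over all cells, were no longer tested. Of the 19 members tested there 7 were lower (Top2a, Ube2c, Plk1, Kif23, Cdc20, Smc2 and Smc4) and 3 higher (Ccnb2, Aurka and Bub1b). Mki67 went from -1.86 to -0.05 and Birc5 from -1.71 to 0.19. The S list kept its 8 lower members and had 4 higher ones, and its median was -0.33. In all, 22 of 34 members were called, against 78.9% of all genes.

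Replication and mitosis genes outside the member lists were counted in the same fits. Of 49 other replication genes 21 were higher and 7 lower in immune than in endothelial cells, beside 67.6% of all genes called, with the smallest p for E2f1, E2f2, Chaf1b, Blm and Prim2. Of 62 other mitosis genes 26 were higher and 7 lower, with the smallest p for Ncapg2, Hmgb2, Lmnb1, Cenpa and Ckap2l. In mesenchyme, beside 79.0% of all genes called, 6 of 47 replication genes were higher and 21 lower (smallest p for Dnmt1, Casp8ap2, Dut, Ccne1 and E2f7), and 6 of 57 mitosis genes were higher and 43 lower (smallest p for Stmn1, Tubb5, Ncaph, Kif18a and Cks1b).

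No member differed between mutant and WT libraries by edgeR's quasi-likelihood test at an adjusted p under 0.05 in any of the 20 sums tested: all kept cells, all blood endothelial cells and 18 named types. The test called 0% of 14016 genes in endothelium, 0% of 13228 in general capillary cells, 0% of 8844 in T cells and 0% of 16674 in all kept cells. At an unadjusted p under 0.05 it called 1.06% of genes in endothelium and 0 of 40 members, 1.67% and 0 of 40 in general capillary cells, and 0.444% and 0 of 40 in all kept cells. DESeq2 also called 0 members in each of the 20 sums. With 2 libraries against 2 an exact permutation test of a single value cannot give a p below 0.33, so none is reported. The test of whether a genotype difference was unlike in immune and endothelial cells called 0% of 14992 genes, with 104 genes and 0 members at an unadjusted p under 0.05.

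In general capillary cells WT B was the low library of several G2/M members. The type's clusters were not evenly filled: a cluster led by Plvap and Ifit1 had 46 cells in WT A, 45 in WT B, 585 in mutant A and 793 in mutant B, and the largest cluster, led by Ciita, had 2760, 665, 1712 and 586 in that order. The part of these clusters in the values below was not tested. Mki67 was 12.9, 2.85, 11.9 and 9.95 CPM and Top2a 15.2, 4.95, 13.7 and 12.2 CPM. For both, WT B was the low library, and WT A lay above both mutant libraries. Hmmr, with the largest positive log2 difference (0.59, SE 0.60), was 2.94, 0.671, 3.31 and 2.43 CPM, followed by Tpx2, a spindle assembly factor (0.46, SE 0.36), and the kinase Plk1 (0.45, SE 0.39). Tpx2 was 4.1, 1.93, 4.32 and 4.36 CPM and Plk1 1.23, 1.01, 2.07 and 1.15 CPM. In each of these 5 genes WT B was the lowest of the 4 libraries.

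The largest negative log2 differences in general capillary cells were those of Mcm7 (-0.21, SE 0.17), Aurka (-0.18, SE 0.31) and Birc5 (-0.17, SE 0.47). Mcm7 was 14.96, 12, 12.9 and 11.4 CPM, Aurka 2.19, 2.10, 1.80 and 2.14 CPM and Birc5 5.50, 1.85, 3.34 and 3.45 CPM. The genotypes overlapped in Mcm7 and Aurka, and in Birc5 the mutant libraries lay between the WT libraries. Mcm7 overlaps Cops6 and Ap4m1 on the other strand, and whether counting used strand is not given in the sources used here.

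The most counted members overlapped between genotypes in general capillary cells. Pcna was 118, 172, 140 and 165 CPM, Slbp 91.0, 102.7, 89.4 and 96.2 CPM, and Rrm1 18, 15.98, 19.3 and 17.0 CPM. For Pcna both B libraries lay above both A libraries. Smc4 was 92.8, 81.8, 85.0 and 80.2 CPM, Smc2 27.3, 22.3, 24.3 and 29.8 CPM, and Kif23 16.1, 8.73, 13.97 and 10.8 CPM. The remaining pair of the S list was Mcm3 at 21.2, 24.6, 21.5 and 27.8 CPM and Mcm4 at 13.3, 11.8, 12.6 and 15.2 CPM. In all these genes the ranges of the genotypes overlapped.

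Over the list, 30 of 40 members had a positive log2 difference in general capillary cells, 10 of 16 S members (median 0.02) and 20 of 24 G2/M members (median 0.25), beside a median of -0.01 over all genes. Outside the mitosis-rich cells it was 18 of 35 members, with a median of 0.00 for both lists. In all blood endothelial cells it was 31 of 40 members with medians of 0.03 and 0.17, and 19 of 36 with medians of -0.01 and 0.02 outside the mitosis-rich cells. Leaving out 1 WT library turned the direction. Without WT B 11 of 40 members were positive in general capillary cells (3 of 24 G2/M members, median -0.21) and 10 of 40 in all blood endothelial cells (3 of 24, median -0.19), with 0 called. Without WT A, the test called Mki67 in all blood endothelial cells and Mki67 and Cenpf in general capillary cells. That leaves WT B, which had 3 mitosis-rich general capillary cells, as the only WT library.

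In all blood endothelial cells the largest positive differences were those of Hmmr (0.60, SE 0.58), Tk1 (0.59, SE 0.56) and Aurkb (0.53, SE 0.59). Hmmr was 2.35, 0.579, 2.63 and 2.02 CPM, Tk1 0.791, 0.237, 0.885 and 0.745 CPM and Aurkb 1.38, 0.342, 1.28 and 1.33 CPM, with WT B the lowest each time. The largest negative ones were those of Ung (-0.21, SE 0.42), Mcm7 (-0.17, SE 0.16) and Cdc6 (-0.16, SE 0.32). Ung was 1.54, 0.895, 1.44 and 0.771 CPM, Mcm7 13.9, 11.3, 12.2 and 11.2 CPM and Cdc6 1.13, 1.00, 1.08 and 0.904 CPM, with overlap between genotypes and low B libraries in each.

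**Figure D5:**
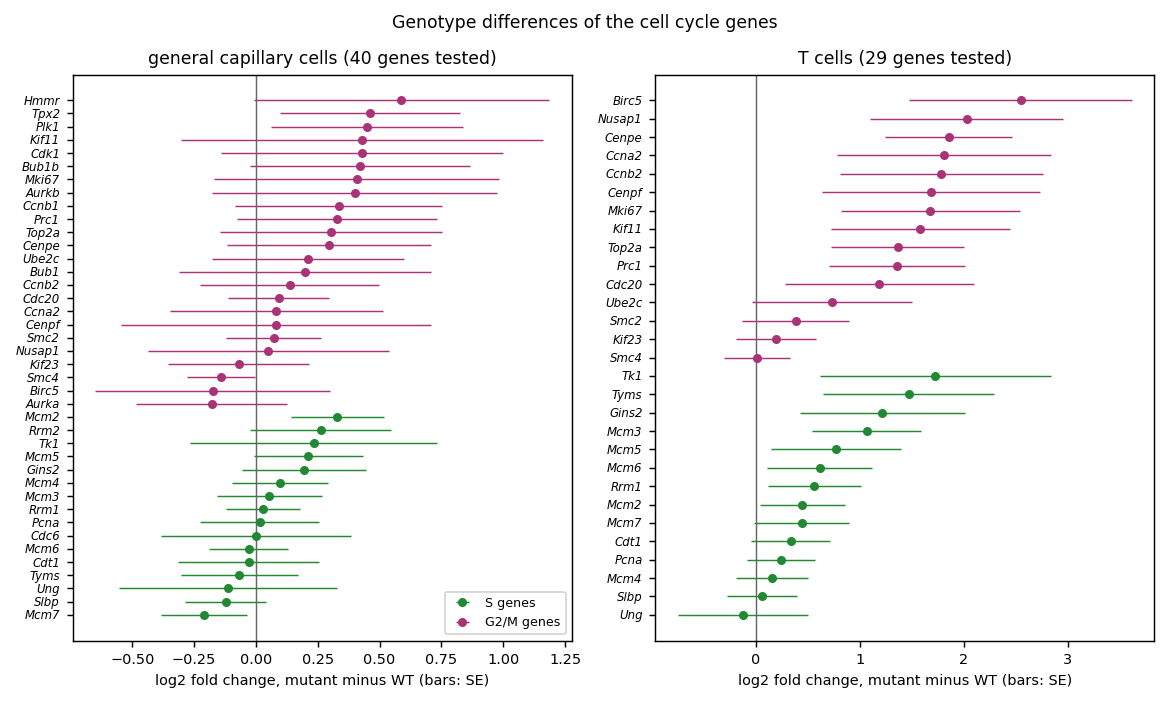
Fitted log2 difference, mutant minus WT, of the 40 members tested in general capillary cells and the 29 tested in T cells, with bars of 1 SE, S and G2/M members in different colours. In general capillary cells Hmmr (0.59) and Mcm7 (-0.21) are the ends, and in T cells Birc5 stands at 2.55 and Smc4 at 0.01.

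In T cells mutant B was the high library of most G2/M members. There 28 of 29 members tested had a positive log2 difference (medians 0.50 for 14 S and 1.58 for 15 G2/M members, beside 0.04 over all genes), with 0 called and 3 members at an unadjusted p under 0.05, against 0.588% of genes. Birc5 was 0, 8.32, 0.837 and 78.3 CPM (log2 difference 2.55, SE 1.07), on 0, 30, 1 and 239 UMIs. Nusap1, a spindle protein, was 0, 5.27, 1.67 and 33.1 CPM (2.03, SE 0.93), and Cenpe, a kinetochore motor, 3.31, 4.99, 9.21 and 24.9 CPM (1.85, SE 0.61). The smallest adjusted p of a member was 0.99988 in edgeR's quasi-likelihood test. Without mutant B 6 of 18 members were positive, with medians of -0.08 and -0.64 and 0 called. The test called Birc5 without WT B, Birc5, Ccna2, Rrm2 and Top2a without mutant A, and Birc5 and Rrm2 without a filter. Mutant B held 17 of the 22 mitosis-rich T cells and mutant A 0 of 245 T cells, and outside those cells 11 of 17 members were positive, with medians of 0.12 and 0.10. Smc4 was 298, 252, 266 and 284 CPM over all T cells, a difference of 0.01 (SE 0.31).

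The remaining types allowed a test of 3 members (club cells and 3 other types) to 33 members (aerocytes), with 0 called in each by edgeR's quasi-likelihood test. At an unadjusted p under 0.05 stood 2 members in alveolar fibroblasts (1.61% of all genes), 1 in aerocytes (1.25%), 1 in venous cells (1.68%) and 0 in the other remaining types. The background at the adjusted threshold was 0.0243% in alveolar fibroblasts, 0.0325% in arterial cells, 0.0295% in club cells, 0.00967% in venous cells and 0% in each of the others. In all kept cells 34 of 40 members had a positive difference, with medians of 0.07 and 0.41, 21 of 40 without mutant B (-0.03 and 0.06), and outside the mitosis-rich cells 25 of 39, with medians of 0.03 and 0.14. Of the other cell cycle lists, 0 genes were called in all blood endothelial cells, where 30 of 49 other replication genes and 46 of 64 other mitosis genes had a positive difference.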

How the data were processed

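The authors deposited raw UMI counts per gene and barcode, made with Cell Ranger 6.1.1 per the file headers; the submitters' processing notes name mm10, fastp, UMI-tools and Seurat 4.1.0. Whether counting used strand is not given in the sources used here. Cells with at least 500 genes, at least 1000 UMIs and under 15% mitochondrial UMIs were kept, and the 8% with the highest Scrublet score were removed in each library, since the automatic call marked 0 to 387. Cells were clustered with scanpy 1.11.5 (2000 variable genes, 40 components, 15 neighbours, Leiden resolution 1, seed 0) without replication and mitosis genes, and named from marker lists. Counts were summed per library and type, for types with at least 20 cells in every library, and tested with edgeR 4.0.16 (TMM, filterByExpr, quasi-likelihood test, Benjamini-Hochberg adjusted p under 0.05 over all genes tested). DESeq2 1.42.0 was an alternative. Gene positions are from GENCODE M21 (mm10). The genotype fit was tried on counts simulated for all blood endothelial cells, with changes only in well counted genes. The simulated dispersion was below the 0.0322 of the data. The fit called 91.2% of genes changed by 1 on the log2 scale, with 9 false calls. This does not show the power for members with few UMIs or for other types. Wilson intervals have a confidence level of 95%.

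All 40 members are accounted for. Values by library are given for the 5 members of each list with the most UMIs, for members called between genotypes (0 in the fits as planned), and for the 3 members with the largest positive and negative difference in endothelium and in general capillary cells; of other lists the 5 called genes with the smallest p, and at most 6 promoters in order of UMIs, among members with a single window in the table. The genes named by cell type or in the comparisons of compartments were chosen after their values were seen. The members and lists were chosen with earlier results of these data known. The alternatives were other scaling, no filter, leaving out each library, other cell filters, clustering with cell cycle genes and cells outside the mitosis-rich ones; the last, scaling by library totals, the sums without Pcna, Slbp, Smc2 and Smc4, and other limits for mitosis-rich cells were added after seeing the data.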

Additional observations from a re-analysis of the deposited data

Results flagged for a closer look

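Cells with many G2/M members also stood among cells that the comparisons between named types do not use. Among 3587 barcodes removed as doublets, 14 were mitosis-rich (0.390%), and 43 had at least 5 G2/M members (1.20%, 95% Wilson interval 0.891 to 1.61%). Among the 3020 kept cells in unnamed clusters, 14 were mitosis-rich and 39 had at least 5 G2/M members (1.29%, interval 0.946 to 1.76%). Of all 41248 kept cells 273 had at least 5 (0.662%, interval 0.588 to 0.745%). Differences in depth between these sets of cells were not tested.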

How the results depend on the processing

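Of 575 alternatives over 67 results, 487 kept the direction and the side of the threshold or stayed within the spread, 67 moved a value or count, 9 turned the direction, 7 lost a call and 5 gained one. Members called between genotypes went from 0 to between 0 and 1 in all blood endothelial cells and to between 0 and 2 in general capillary cells when each library was left out, with the highest count without WT A. Over the 17 other named types together the count went from 0 to 5 without a filter (Birc5 and Rrm2 in T cells, Cenpf in alveolar fibroblasts, Cenpf and Mki67 in venous cells) and to between 0 and 5 when each library was left out. With the set letter as a replicate block it was 7 (Birc5, Ccnb2, Cenpf, Mki67 and Nusap1 in T cells, Mki67 in venous cells, Cdt1 in neutrophils), and 0 in endothelium, general capillary cells and all kept cells. In the labels the 2 pairs of libraries share only that letter; the A minus B differences of the genotypes correlated over genes with r = 0.578 in endothelium and 0.418 in all kept cells. In T cells Birc5 passed the threshold at 2.54 without a filter, 3.14 with the block and 3.34 without mutant A; it also did without WT B, where the only WT library has 0 Birc5 UMIs and the fold has no fixed size. The 23 members called between immune and endothelial cells became 15 to 27 when a library was left out and 15 with library totals as the scaling. For the genotype, differences of Ung in endothelium ranged from -0.65 to 0.22 when each library was left out, of Hmmr from -0.059 to 1.92 and of Aurkb from -0.12 to 1.84. In general capillary cells Aurka ranged from -0.38 to 0.0072, Birc5 from -0.73 to 0.80 and Hmmr from -0.077 to 2.00, and Birc5 was 0.18 with cell cycle genes in the clustering and Plk1 -0.036 outside the mitosis-rich cells. The mean S share of all kept cells was 64.6%, 56.2% without Pcna, Slbp, Smc2 and Smc4, and 72.1% outside the mitosis-rich cells. The mean share of cells with at least 3 G2/M members was 3.26%, 3.81% without doublet removal, 3.86% under stricter filters, 12.1% for at least 2 members, 0.669% for at least 5 and 0.553% after thinning. The causes were not tested. No alternative was run for the test of genotype between compartments.

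Each genotype has 2 pooled libraries and WT B has 3 mitosis-rich general capillary cells, so a genotype difference in G2/M members smaller than the spread between pools was not detectable here. Members with few UMIs, such as Bub1 with 237, were not tested in most types.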

Other observations

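The levels of G1 genes and of genes that restrain the cycle are given here by compartment. Unlike the members, these genes were not left out of clustering by list, so the compartments may have been drawn partly from them. In the blood endothelial cells the G1 cyclin Ccnd1 was 359 ± 73.1 CPM (SD, n = 4 libraries), against 46.0 ± 20.8 CPM in immune and 26.0 ± 6.31 CPM in mesenchymal cells. It was lower in immune than in endothelial cells by edgeR's quasi-likelihood test (log2 difference -2.66, SE 0.28, adjusted p = 0.00016). Ccnd3 was 182 ± 20.4 CPM in endothelium and Ccnd2 157 ± 19.2 CPM.

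Of the restraining genes, Cdkn1a, which encodes the kinase inhibitor p21, was 1218 ± 217 CPM in endothelium, 435.6 ± 38.6 CPM in immune and 353 ± 44.7 CPM in mesenchymal cells, and Btg2 was 1241 ± 326 CPM in endothelium. Btg1 was 346 ± 34.6 CPM in endothelium and 2595 ± 937 CPM in immune cells. Cdkn1c (p57) was 158 ± 24.3 CPM and Cdkn2c (p18) 82.9 ± 19.7 CPM in mesenchymal cells, against 20.6 ± 1.48 and 9.14 ± 1.15 CPM in endothelium. Of 9 G1 genes tested 1 was higher and 4 lower in immune than in endothelial cells, and of 18 restraining genes 7 were higher and 6 lower; 67.6% of all genes were called, so these shares lie near the background. Between genotypes 0 of the 9 and 0 of the 18 were called in endothelium.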
